A study of Mus musculus with 15 samples.

Results

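The response of the wild-type (WT) jejunum to ezetimibe was read in 8 of the 15 RNA-seq libraries of the series, 4 from WT mice fed ezetimibe and 4 from WT mice fed the control diet. They were picked by their column names, which carry genotype and diet. Every library came from frozen distal jejunum, the lower end of the middle small intestine, and the mice were C57BL/6 males, 13 to 15 weeks old. The WT ezetimibe mice ate food with 0.08% cholesterol and 0.01% ezetimibe, and the WT control mice ate food with 0.08% cholesterol and no ezetimibe. The remaining 7 libraries were from global knockout (KO) mice that lack both Aster-B and Aster-C, sterol carrier proteins, 4 fed ezetimibe and 3 fed the control diet. They entered the fit, which shares 1 estimate of spread over all groups, and gave a second reading of the drug's effect. The labels number the replicates and give no cage, day or feeding time, and they do not say that each library is a separate mouse, so the p-values speak for the spread among these samples alone, which may be technical.

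Ezetimibe binds NPC1L1, the protein that takes up cholesterol at the brush border of the small intestine. When the endoplasmic reticulum of a cell holds little cholesterol, the escort protein SCAP lets go of INSIG1 and carries the transcription factor SREBP2 to the Golgi, where it is cut free and switches on the genes of cholesterol synthesis and uptake. When sterols are plentiful, oxysterols instead activate the liver X receptors (LXR), which switch on the efflux transporters Abca1, Abcg5 and Abcg8.

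The promoters of 6 genes are printed because they hold the core letters of a sterol regulatory element or of an interferon-stimulated response element. SREBP2 is known to bind the first of these elements, and no LXR element was searched. Each is a window of 300 bases, 250 before and 50 after the gene's start, read 5′ to 3′ on the gene's own strand from RefSeq (GRCm38.p6). The windows are Hmgcs1 at chr13:119690101-119690400 on the plus strand, Srebf2 at chr15:82147019-82147318 on the plus strand, Msmo1 at chr8:64733529-64733828 on the minus strand and Aldoc at chr11:78322823-78323122 on the plus strand. In these 4 genes, all called higher on ezetimibe, capitals mark the core of a sterol regulatory element (TCACNCCA) and, where present, the CCAAT box, on either strand.
Hmgcs1: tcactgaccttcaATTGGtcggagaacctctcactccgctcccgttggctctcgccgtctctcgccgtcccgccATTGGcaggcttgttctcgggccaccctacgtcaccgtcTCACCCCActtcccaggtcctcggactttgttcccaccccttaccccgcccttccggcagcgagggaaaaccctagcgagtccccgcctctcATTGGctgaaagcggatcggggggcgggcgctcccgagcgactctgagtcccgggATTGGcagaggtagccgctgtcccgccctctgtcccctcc
Srebf2: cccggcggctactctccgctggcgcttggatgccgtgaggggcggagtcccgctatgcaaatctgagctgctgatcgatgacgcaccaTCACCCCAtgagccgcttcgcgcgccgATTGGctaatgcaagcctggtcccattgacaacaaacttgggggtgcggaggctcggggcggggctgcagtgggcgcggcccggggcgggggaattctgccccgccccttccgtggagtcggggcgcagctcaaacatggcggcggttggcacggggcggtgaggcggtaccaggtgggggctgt
Msmo1: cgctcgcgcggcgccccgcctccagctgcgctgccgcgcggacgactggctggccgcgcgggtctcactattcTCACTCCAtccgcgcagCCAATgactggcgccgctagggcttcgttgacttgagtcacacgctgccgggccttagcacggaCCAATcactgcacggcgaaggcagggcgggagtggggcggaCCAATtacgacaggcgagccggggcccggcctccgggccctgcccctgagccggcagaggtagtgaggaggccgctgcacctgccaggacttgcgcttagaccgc
Aldoc: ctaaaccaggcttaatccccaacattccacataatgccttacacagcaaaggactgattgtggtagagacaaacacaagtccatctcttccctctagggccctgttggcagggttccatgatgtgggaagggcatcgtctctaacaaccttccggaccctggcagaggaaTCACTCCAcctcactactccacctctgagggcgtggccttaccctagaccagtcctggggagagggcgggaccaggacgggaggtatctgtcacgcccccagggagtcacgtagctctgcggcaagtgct
The other 2 windows are Isg15 at chr4:156200769-156201068 on the minus strand and Ifit3 at chr19:34583279-34583578 on the plus strand, of genes induced by interferons. Capitals mark the core of an interferon-stimulated response element (GAAANNGAA) on either strand, and the 3 matches in Isg15 overlap one another.
Isg15: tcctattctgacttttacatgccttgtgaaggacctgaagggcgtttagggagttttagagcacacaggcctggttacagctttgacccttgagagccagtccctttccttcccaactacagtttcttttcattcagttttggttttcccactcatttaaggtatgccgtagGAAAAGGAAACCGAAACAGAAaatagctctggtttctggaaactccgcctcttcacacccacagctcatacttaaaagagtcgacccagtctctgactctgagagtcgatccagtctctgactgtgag
Ifit3: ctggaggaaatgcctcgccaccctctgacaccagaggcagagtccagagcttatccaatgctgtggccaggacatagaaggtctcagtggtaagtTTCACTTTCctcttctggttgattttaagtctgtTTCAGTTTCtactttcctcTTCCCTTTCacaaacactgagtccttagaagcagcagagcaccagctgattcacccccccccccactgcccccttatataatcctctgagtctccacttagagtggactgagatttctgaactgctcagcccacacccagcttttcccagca

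Of 32851 windows, 4.36% held the sterol regulatory element core, 37.41% the CCAAT box and 8.56% the interferon-stimulated core. These are shares of windows, also of genes not tested here, while the counts that follow are of genes, which may have several windows. The 2 measures are therefore not alike. RefSeq windows were matched for 22 of the 29 genes called higher, of which 5 held the sterol core, 16 the CCAAT box and 2 the interferon-stimulated core, counting a gene when any of its windows did. Among 18 cholesterol synthesis genes, 15 were matched, of which 2 held the sterol core and 14 the CCAAT box. Among 26 interferon response genes, 18 were matched, of which 12 held the interferon-stimulated core. A match is a description of letters in the window and not of binding, and these windows do not reach elements further away.

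Levels are DESeq2-normalised read counts as deposited, and each fold change was computed after adding 1 and taking log2. Whole reads were recovered from these values and summed to 13855034 to 16940970 in the 8 WT libraries. Log2 levels of 2 libraries correlated across genes with r of 0.981 to 0.987 within WT ezetimibe and of 0.966 to 0.98 within WT control, and no pair agreed within sampling noise. On the first principal component of all 15 libraries, with 27.7% of the variance, WT control replicate 4 stood at the upper end at 52.57 and KO ezetimibe replicate 3 at the lower end at −58.58. A score of clock genes was −1.04 to 0.98 in WT ezetimibe and −0.72 to 1.05 in WT control. The tissue was checked against 12 enterocyte markers, whose summed level was 730140 to 900820 normalised read counts in WT ezetimibe and 711730 to 1031400 in WT control. Ileal Fabp6, a bile acid binding protein, was low at 47.4 to 174 in WT ezetimibe and 56.0 to 381 in WT control.

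Few genes were called, and some of these changed many-fold. The number called depends on the number of libraries and on the settings, so it does not give how many genes the drug changes. Of 14299 genes tested, limma called 31 at an adjusted p under 0.05, of which 29 rose (0.203% of those tested) and 2 fell (0.014%). At an unadjusted p under 0.05, 449 genes were higher (3.14%) and 277 lower (1.94%). The groups did not overlap in 323 genes that were higher (2.26%) and in 173 that were lower (1.21%), among them all 31 called genes. Called genes included 11 enzymes of cholesterol synthesis and the sterol regulators Srebf2 and Insig1. Also called were Tapbp, of class I peptide loading, the class I gene H2-Q10 and the class I pseudogene H2-K2. The 2 that fell, Abca1 and Abcg5, encode sterol efflux transporters. On the recovered reads edgeR called 34 genes (0.238%) and DESeq2 93 (0.65%), and both lists held all 31. Without WT control replicate 4, which stood apart, limma called 22, all among the 31, and without KO ezetimibe replicate 3 it called 30, all among the 31. With the clock score as a covariate it called 31, the same genes, and with a score of dividing-cell genes it called 32, of which 29 were among the 31.

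The largest fall of all genes tested was that of Abca1. Abca1 (ENSMUSG00000015243, mm10 chromosome 4, 53030787 to 53159895, minus strand) encodes the transporter that loads cholesterol onto apolipoprotein A-I at the basal side of the enterocyte. It had 213, 128, 196 and 196 normalised read counts in WT ezetimibe replicates 1 to 4, against 2299, 1556, 1735 and 1446 in WT control replicates 1 to 4. Every ezetimibe library was far below every control library. The change was 9.57-fold, a log2 fold change of −3.26 ± 0.18 (SE, 95% interval −3.64 to −2.88, adjusted p by limma = 9.51e-08). In bulk tissue, fewer cells of a type and less RNA per cell cannot be told apart. Myeloid cells also express Abca1. None of their 10 markers was called, 3 were positive, none was at 0, and their summed level was 667 to 977 in WT ezetimibe and 618 to 1460 in WT control. Their part in the Abca1 result was not tested.

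Abcg5 and Abcg8 encode the partners of a transporter that returns sterols to the gut lumen. Abcg5 (mm10 chromosome 17, 84658234 to 84683011, minus strand) had 2783, 2648, 3452 and 2682 normalised read counts in WT ezetimibe, against 6011, 4697, 5591 and 4375 in WT control. The groups did not overlap, and Abcg5 fell by 0.83 ± 0.14 on the log2 scale (SE, adjusted p by limma = 0.0137). The call ended without WT ezetimibe replicate 2 or 4 or WT control replicate 3, where log2 fold changes over the 8 fits that leave out a library were −0.92 to −0.76. Abcg8 (chromosome 17, 84676302 to 84700333, plus strand) had 2242, 2039.6, 2240.4 and 1904 in WT ezetimibe, against 4533, 3447, 4166 and 2407 in WT control. It was lower without overlap, but its log2 fold change of −0.75 ± 0.19 (SE) did not pass limma (adjusted p = 0.256), and DESeq2 called it (adjusted p = 0.0163). The ends of Abcg5 and Abcg8 overlap on opposite strands, and reads there were not told apart. Abcg1, another LXR target, was low in both groups at 38.0, 40.4, 46.2 and 31.6 in WT ezetimibe and 44.9, 40.9, 38.1 and 41.8 in WT control.

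**Figure D1:**
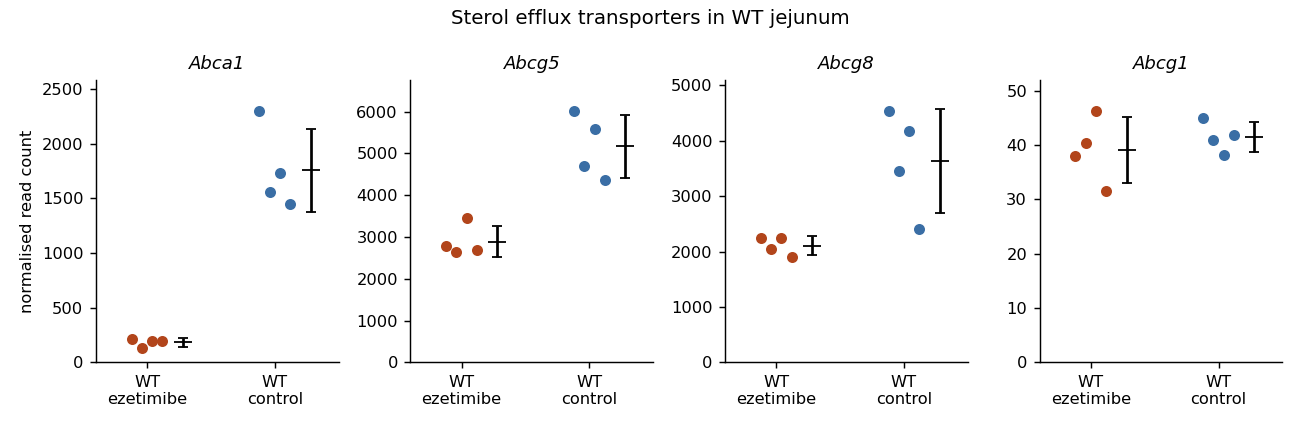
Normalised read counts of 4 sterol efflux genes in each of 4 WT ezetimibe and 4 WT control libraries, with the mean and SD at the right of each group and axes that start at 0. Abca1 lay between 128 and 213 in ezetimibe libraries and between 1446 and 2299 in control libraries, Abcg5 and Abcg8 were also lower without overlap, and the Abcg1 groups overlapped.

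Other genes around LXR moved less. Of 7 LXR receptors and other LXR targets limma, edgeR and DESeq2 called 0, 1 had an unadjusted p under 0.05, 2 were positive and the median log2 fold change was −0.07, against −0.01 over all genes tested. Mylip, which encodes the ubiquitin ligase IDOL that degrades lipoprotein receptors, had a log2 fold change of −0.56 ± 0.26 (SE, adjusted p by limma = 0.968), with 229, 155, 187 and 132 normalised read counts in WT ezetimibe and 429, 294, 175 and 188 in WT control, which overlapped.

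Of 18 enzymes of cholesterol synthesis 11 rose, at early and late steps. Of 9 that lead from acetyl-CoA to squalene epoxide, 7 rose and all 9 were positive, with a median log2 fold change of 1.10. Of 9 that lead from the closing of the sterol rings to cholesterol, 4 rose and all 9 were positive, with a median of 0.82. Both stand against a median of −0.01, 47.7% positive and 0.203% called higher over all genes tested. The mean log2 level of the first list was 9.07, 9.18, 8.92 and 9.19 in WT ezetimibe replicates 1 to 4, against 7.45, 8.10, 8.08 and 8.23 in WT control replicates 1 to 4, so WT control replicate 1, with the most Abca1, was the lowest library. Across the 8 fits that leave out 1 library, 8 to 11 of the 18 enzymes were called.

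Early steps were read first. Hmgcs1, which joins acetyl-CoA and acetoacetyl-CoA to HMG-CoA, had 3188, 3952, 3234 and 3251 normalised read counts in WT ezetimibe, against 1276, 1434, 1766 and 2233 in WT control. It was higher in every ezetimibe library and rose by 1.05 ± 0.15 on the log2 scale (SE, adjusted p by limma = 0.00699); its promoter, printed above, holds a sterol core and 4 CCAAT boxes.

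Mevalonate kinase, Mvk (mm10 chromosome 5, 114444269 to 114460591, plus strand), had the smallest p of the rising genes. It had 361, 411, 349 and 389 normalised read counts in WT ezetimibe, against 129, 163, 146 and 160.0 in WT control. The groups stood well apart and Mvk rose 2.52-fold (log2 fold change 1.33 ± 0.11, SE, adjusted p by limma = 1.97e-05). Mmab, a cobalamin enzyme gene read from the opposite strand next to Mvk, had a log2 fold change of 0.58 ± 0.17 (SE, adjusted p by limma = 0.424) and overlapping groups.

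The following steps make the isoprenoid units and squalene. Phosphomevalonate kinase, Pmvk, rose by 1.10 ± 0.19 on the log2 scale, the decarboxylase Mvd by 1.10 ± 0.18 and the isomerase Idi1 by 1.24 ± 0.18 (SE, adjusted p by limma = 0.0153, 0.0139 and 0.00521). Squalene synthase, Fdft1, had 1049.7, 1176, 975 and 1257 normalised read counts in WT ezetimibe, against 267, 476, 432 and 525 in WT control. Squalene epoxidase, Sqle, had 1622, 1625, 1321 and 1746 in WT ezetimibe, against 339.9, 631, 847 and 749.9 in WT control. Both were higher without overlap, and Fdft1 rose by 1.43 ± 0.17 and Sqle by 1.37 ± 0.22 (log2, SE, adjusted p by limma = 0.000788 and 0.0139). Calls ended without WT ezetimibe replicate 2 or 4 for Sqle, Pmvk and Mvd, and also without WT control replicate 2 for Pmvk and WT control replicate 3 for Mvd, at log2 fold changes that stayed within 0.91 and 1.53. Acat2 and Fdps, named to complete the pathway after their values were seen, had 0.64 ± 0.16 and 0.87 ± 0.28 (log2, SE, adjusted p by limma = 0.229 and 0.517). Fdps has processed pseudogenes, and its counts were low.

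Late steps turn lanosterol into cholesterol. The demethylase Cyp51 had 2896, 2667, 1905 and 3020.2 normalised read counts in WT ezetimibe, against 668, 1169.7, 933 and 1133 in WT control. The sterol methyl oxidase Msmo1 had 2048, 1853, 2032 and 2126 in WT ezetimibe, against 1137, 945, 1124 and 1201 in WT control. Neither pair of groups overlapped, and Cyp51 rose by 1.44 ± 0.19 and Msmo1 by 0.87 ± 0.10 (log2, SE, adjusted p by limma = 0.00286 and 0.000788). The dehydrogenase Nsdhl rose by 0.82 ± 0.12 and the reductase Tm7sf2 by 0.69 ± 0.12 (log2, SE, adjusted p by limma = 0.00862 and 0.0153), and Tm7sf2 lost its call where WT ezetimibe replicate 3 or WT control replicate 2 or 4 was left out. Hsd17b7, at 0.82 ± 0.16, and Dhcr7, at 0.44 ± 0.10 (log2, SE), missed limma's threshold (adjusted p = 0.0615 and 0.126), though DESeq2 called both (adjusted p = 0.000905 and 0.00888).

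The lanosterol synthase gene Lss and 2 further late enzymes were named after their values were seen. Lss had a log2 fold change of 0.82 ± 0.20, Sc5d of 0.36 ± 0.10 and Ebp of 0.09 ± 0.10 (SE, adjusted p by limma between 0.227 and 0.999). Only Lss among these 3 had groups without overlap.

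**Figure D2:**
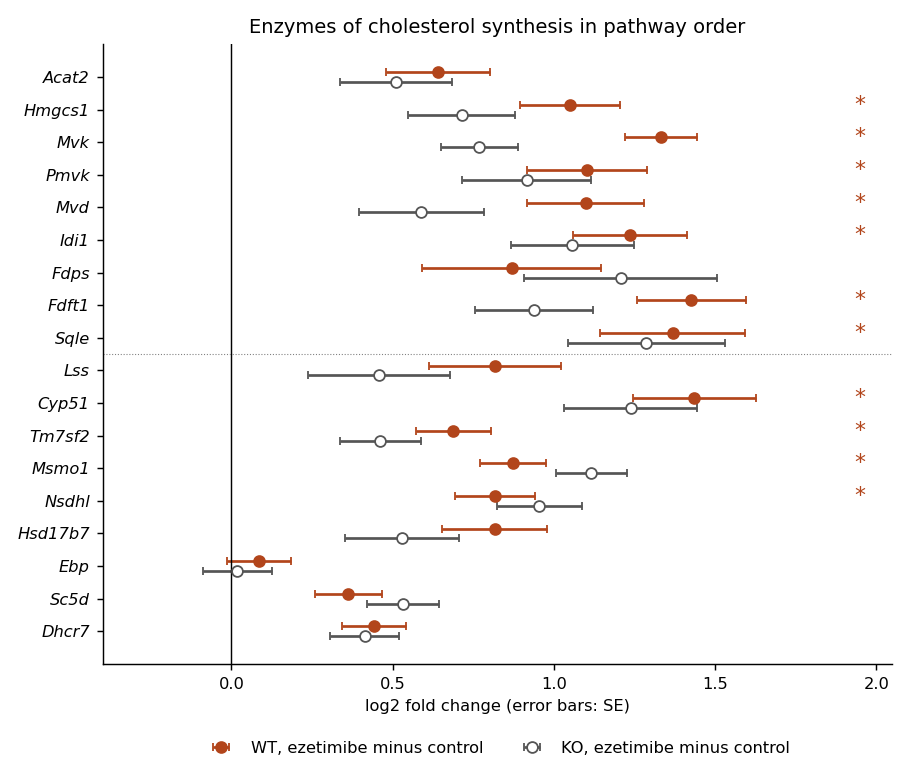
Log2 fold changes of ezetimibe minus control with SE for 18 enzymes of cholesterol synthesis in pathway order, filled for WT and open for KO, with an asterisk for a limma call in WT. All 18 were positive in WT, from 0.09 for Ebp to 1.44 for Cyp51, and the dotted line separates the steps up to squalene epoxide from those after it.

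Genes that sense sterols were read next. Srebf2 (mm10 chromosome 15, 82147181 to 82205379, plus strand), the gene of SREBP2, had 2029, 2276, 1818 and 2042 normalised read counts in WT ezetimibe, against 932, 1195, 1200.2 and 1399.99 in WT control. Insig1, whose protein holds SCAP in the endoplasmic reticulum and is itself an SREBP target, had 1353, 1621, 1803 and 1568 in WT ezetimibe, against 581, 583, 767 and 933 in WT control. Both were higher in every ezetimibe library, and Srebf2 rose by 0.80 ± 0.11 and Insig1 by 1.17 ± 0.14 (log2, SE, adjusted p by limma = 0.00521 and 0.000788). The other 5 of 7 sensing and processing genes were not called. Srebf1, whose products drive lipid synthesis more broadly, had a log2 fold change of −0.15 ± 0.15 (SE, adjusted p by limma = 0.999) and overlapping groups. It was 0.02 without WT control replicate 1, the library with the most Srebf1 at 1712.

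Of 7 further SREBP2 targets 2 rose and all 7 were positive, with a median log2 fold change of 0.35. Over all genes tested 0.203% were called higher and 47.7% were positive. Erg28, which scaffolds the yeast enzymes of sterol synthesis, and Rdh11, a retinol dehydrogenase, rose by 0.58 ± 0.10 and 0.61 ± 0.11 (log2, SE, adjusted p by limma = 0.0153 and 0.0214). Without WT ezetimibe replicate 2 or 4, or WT control replicate 1 or 3, neither was called, nor was Rdh11 without WT control replicate 2, while their log2 fold changes stayed between 0.54 and 0.66.

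Npc1l1, the gene of the drug's target, had 19800, 16502, 22690 and 16851 normalised read counts in WT ezetimibe and 18129, 13905, 16325 and 13664 in WT control. Its groups overlapped, at 0.29 ± 0.16 (log2, SE, 95% interval −0.04 to 0.62, adjusted p by limma = 0.999).

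**Figure D3:**
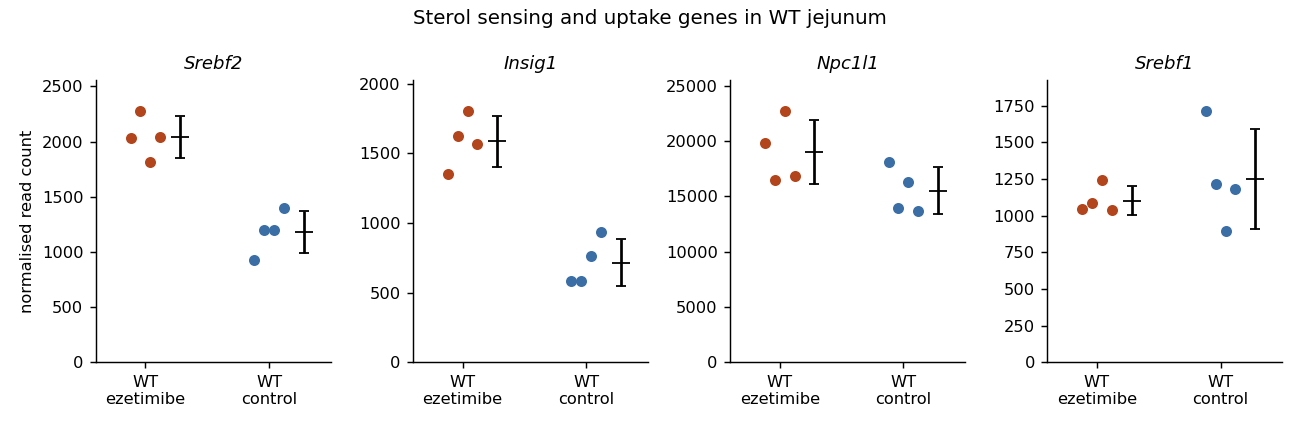
Normalised read counts of 4 genes of sterol sensing and uptake in each WT ezetimibe and WT control library, with the mean and SD at the right of each group and axes that start at 0. Srebf2 and Insig1 were higher in all 4 ezetimibe libraries, while the groups of Npc1l1 and Srebf1 overlapped.

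Cholesterol transfer and storage genes gave 0 calls by limma, edgeR and DESeq2. Of 10 genes of sterol transfer inside the cell 0 had an unadjusted p under 0.05 and 6 were positive, with a median log2 fold change of 0.03. The Aster genes Gramd1a, Gramd1b and Gramd1c had 0.12 ± 0.17, 0.06 ± 0.16 and −0.17 ± 0.23 (log2, SE, adjusted p by limma = 0.999 each). Among 4 genes of sterol esters 1 had an unadjusted p under 0.05, Nceh1, a cholesteryl ester hydrolase. It was lower without overlap, at 274, 309, 300 and 305 normalised read counts in WT ezetimibe against 408, 351, 333 and 505 in WT control, but did not pass limma (adjusted p = 0.966).

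Among other lipid genes, 0 of 13 fatty acid synthesis genes, 0 of 12 chylomicron genes, 0 of 16 genes of PPARα and fatty acid oxidation and 0 of 7 bile acid genes were called by limma, edgeR or DESeq2. At an unadjusted p under 0.05 there were 0, 0, 2 and 1, all lower, and their median log2 fold changes were 0.15, −0.06, −0.05 and −0.17. Fasn, fatty acid synthase, had 0.30 ± 0.23, Acss2, an acetyl-CoA synthetase, 0.29 ± 0.14, and Cpt1a, the gate of mitochondrial fatty acid oxidation, −0.31 ± 0.12 (log2, SE, adjusted p by limma = 0.999, 0.968 and 0.768). Slc51a, a subunit of the basolateral bile acid exporter, was lower without overlap at −0.29 ± 0.10 (log2, SE, adjusted p by limma = 0.666). Of 17 genes of drug metabolism and export 3 were positive and 0 were called by the same 3 tools. At an unadjusted p under 0.05 there were 3, all lower, and 2 were lower without overlap. Over all genes tested 47.7% were positive, 1.94% were lower at that p and 1.21% were lower without overlap. Gsta4, a glutathione transferase, had −0.54 ± 0.19 and Abcb1a, the drug exporter P-glycoprotein, −0.69 ± 0.32 (log2, SE, adjusted p by limma = 0.656 and 0.968). The list's mean log2 level was 11.71 in WT ezetimibe replicate 3 and 10.91 to 10.94 in the rest of that group.

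Called genes outside sterol metabolism included a class I gene, a class I pseudogene and a gene of class I peptide loading. H2-Q10 (mm10 chromosome 17, 35470089 to 35474563, plus strand), which encodes a secreted class I molecule, had 285, 331, 367 and 366 normalised read counts in WT ezetimibe, against 47.7, 73.6, 84.5 and 49.9 in WT control. Every ezetimibe library was above every control library, a 5.33-fold difference (log2 fold change 2.42 ± 0.28, SE, adjusted p by limma = 0.000788). H2-K2, a class I pseudogene, had 114, 117, 149 and 116 in WT ezetimibe, against 70.7, 75.4, 71.1 and 67.2 in WT control, and rose by 0.79 ± 0.15 (log2, SE, adjusted p by limma = 0.0406), although its call ended without any 1 of the 8 libraries (log2 fold changes 0.70 to 0.83). Tapbp encodes tapasin, which holds class I molecules at the peptide transporter, and had 4831, 4674, 4451 and 4173 in WT ezetimibe, against 3018, 3013, 3137 and 2845 in WT control. It was higher without overlap and rose by 0.59 ± 0.09 (log2, SE, adjusted p by limma = 0.0109). Class I genes have near-identical copies, and reads may be split between them.

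The wider class I lists had few calls. Of 14 class I heavy chains 1 was called, 13 were positive, 8 were higher at an unadjusted p under 0.05 and 6 did not overlap, with a median log2 fold change of 0.42. Over all genes tested 0.203% were called higher, 47.7% were positive, 3.14% were higher at that unadjusted p and 2.26% were higher without overlap. H2-K1, a classical heavy chain, had 38612, 41277, 42344 and 36342 normalised read counts in WT ezetimibe and 34161, 25189, 30948 and 24635 in WT control (log2 fold change 0.48 ± 0.14, SE, adjusted p by limma = 0.38). Of 12 genes of peptide loading and the immunoproteasome 1 was called, all 12 were positive, 9 were higher at an unadjusted p under 0.05 and 9 did not overlap, with a median of 0.45. The peptide transporter genes Tap1 and Tap2 had 0.82 ± 0.27 and 0.60 ± 0.15, and Psmb9, whose end overlaps that of Tap1, 0.62 ± 0.20 (log2, SE, adjusted p by limma = 0.579, 0.239 and 0.508).

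Interferon response genes were read as a list. Of 26, 25 were positive, 23 had an unadjusted p under 0.05 and 20 did not overlap between the groups, with a median log2 fold change of 1.12, but only Isg15 was called by limma. The shares over all genes tested were 47.7% positive, 3.14% higher at that unadjusted p and 2.26% higher without overlap. Over the alternatives tried the list's median was 0.98 to 1.27 and its number of calls 0 to 17. It had 4 calls by edgeR and 17 by DESeq2, which called 0.238% and 0.65% of all genes tested. The list's mean log2 level was 8.90, 9.35, 9.41 and 9.31 in WT ezetimibe replicates 1 to 4, against 8.49, 7.96, 8.31 and 7.95 in WT control replicates 1 to 4. WT ezetimibe replicate 1 was the lowest of its group and still above all controls. Mx1, singled out after its value was seen, was the 1 negative member, at −0.05 ± 0.23 (log2, SE).

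Isg15 (mm10 chromosome 4, 156199424 to 156200818, minus strand) encodes a small ubiquitin-like protein that interferon induces. It had 950.4, 1601, 1569 and 1758 normalised read counts in WT ezetimibe, against 689, 429, 634 and 465 in WT control. The groups did not overlap, and Isg15 rose 2.63-fold (log2 fold change 1.40 ± 0.26, SE, adjusted p by limma = 0.0275). Its call held without WT ezetimibe replicate 1 or WT control replicate 1 and ended without any of the other 6 libraries, at log2 fold changes of 1.28 to 1.59. With the score of dividing-cell genes as a covariate Isg15 also missed the threshold (adjusted p by limma = 0.0563).

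Oas2, a sensor of double-stranded RNA, had 132, 237, 291 and 344 normalised read counts in WT ezetimibe, against 92.6, 46.3, 84.5 and 68.3 in WT control. Ifit3, which joins complexes that bind viral RNA, had 296, 559, 679 and 429 in WT ezetimibe, against 194, 149, 144 and 155 in WT control. Rtp4, an interferon-induced chaperone, had 469.9, 733, 757 and 707 in WT ezetimibe, against 309, 214, 277 and 254 in WT control. All 3 were higher without overlap but missed limma, at log2 fold changes of 1.73 ± 0.34, 1.55 ± 0.31 and 1.32 ± 0.27 (SE, adjusted p by limma between 0.0587 and 0.0631), while edgeR and DESeq2 both called them. Oas and Ifit genes have close copies among which reads may be split.

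The interferon-induced GTPases of the IRG and GBP families were positive in 13 of 13, with 0 called by limma, 9 at an unadjusted p under 0.05, 0 by edgeR and 3 by DESeq2, and a median log2 fold change of 0.89. Over all genes tested 47.7% were positive, 3.14% were higher at that unadjusted p, and edgeR and DESeq2 called 0.238% and 0.65%. Igtp had 2076, 2187, 2692 and 1200.5 normalised read counts in WT ezetimibe and 781, 439, 822 and 496 in WT control (log2 fold change 1.68 ± 0.41, SE, adjusted p by limma = 0.206). Called genes outside the list but also known to answer interferon included Parp10, an ADP-ribosyltransferase, which rose by 0.47 ± 0.08 (log2, SE, adjusted p by limma = 0.0172). Its call held in 2 of the 8 fits that leave out a library, those without WT ezetimibe replicate 2 or WT control replicate 1 (0.45 to 0.51 over the 8).

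Markers of immune cells were read beside these genes. Of 12 T and NK cell markers all were positive, 0 were called by limma, edgeR or DESeq2, 7 had an unadjusted p under 0.05 and none was at 0, with a median of 0.47 on the log2 scale. Over all genes tested 47.7% were positive and 3.14% were higher at that unadjusted p. The summed level of the 12 markers was 6689 to 9171 normalised read counts in WT ezetimibe and 4682 to 7773 in WT control, which overlapped. Cd3g, of the T cell receptor complex, had 0.48 ± 0.17 and Cd7 0.55 ± 0.21 (log2, SE, adjusted p by limma = 0.71 and 0.763). Of 7 MHC class II genes all were positive, and 0 were called by these tools or had an unadjusted p under 0.05, with a median of 0.19. The part of these cells in the interferon and class I results was not tested.

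**Figure D4:**
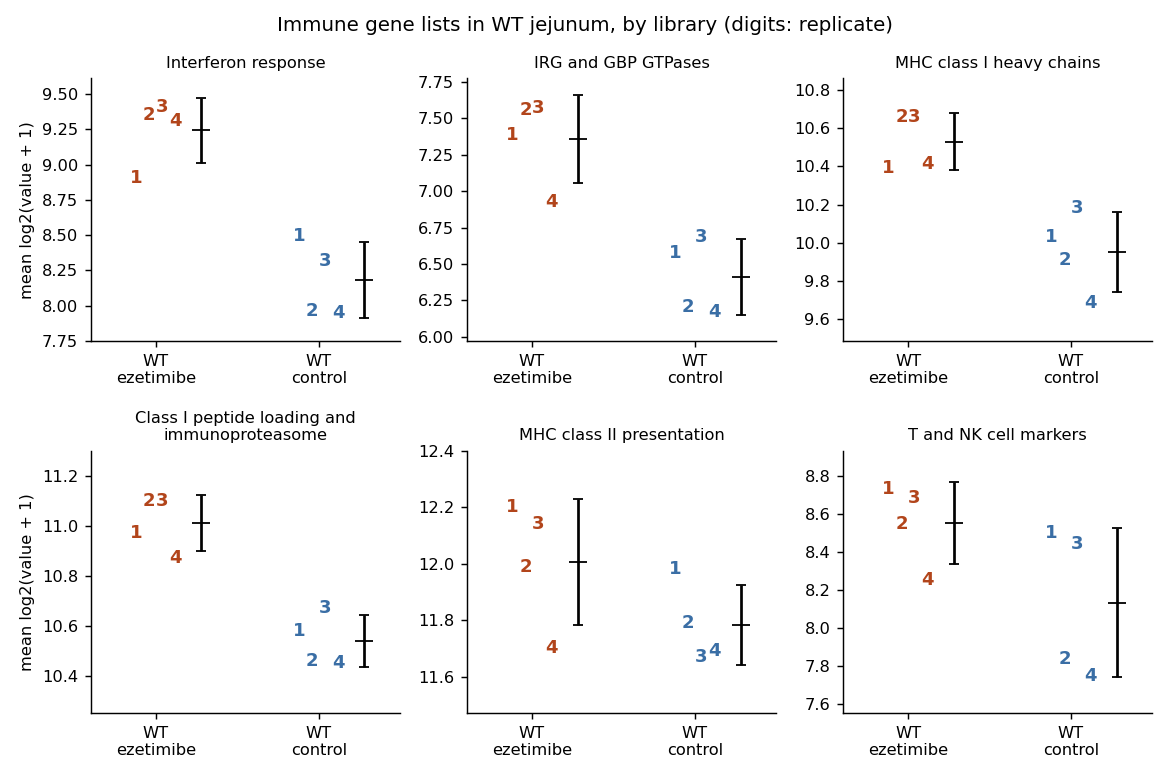
Mean log2(value + 1) of 6 immune gene lists in each WT ezetimibe and WT control library, where digits are replicate numbers and black marks the mean and SD; the axes do not start at 0. Ezetimibe libraries lay above all control libraries for the interferon, GTPase, class I and peptide loading lists, and the groups overlapped for MHC class II and for T and NK cell markers.

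The other called genes with names had less in common. Aldoc, a fructose-bisphosphate aldolase whose promoter above holds a sterol core, had 214, 179, 154 and 103 normalised read counts in WT ezetimibe, against 38.2, 81.7, 58.7 and 45.9 in WT control, and rose by 1.53 ± 0.27 (log2, SE, adjusted p by limma = 0.0226). Mospd2, which tethers the endoplasmic reticulum to other membranes, rose by 0.72 ± 0.12, Scpep1, a serine carboxypeptidase, by 0.66 ± 0.11 and Ogfr, the opioid growth factor receptor, by 0.66 ± 0.11 (log2, SE, adjusted p by limma between 0.0135 and 0.0153). Csta2, a stefin with close copies, was low at 34.8, 16.9, 24.5 and 19.5 in WT ezetimibe, against 1.91, 2.72, 6.18 and 4.08 in WT control. The pseudogene Vmn2r-ps126 had 45.4, 30.05, 15.1 and 25.1 in WT ezetimibe, against 4.77, 8.17, 0 and 1.02 in WT control. Both rose without overlap (adjusted p by limma = 0.0212 and 0.0239), at low counts. Another 2 called genes, a long non-coding RNA and a processed pseudogene, are unnamed models. The promoter window of Ogfr held an interferon-stimulated core and that of the long non-coding RNA a sterol core. The windows of Mospd2, Scpep1 and Csta2 held neither.

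Most of these calls ended when 1 library was left out. Scpep1 lost its call without WT ezetimibe replicate 2 (log2 fold changes 0.57 to 0.71 over 8 fits). Ogfr lost it without WT ezetimibe replicate 2, 3 or 4 or WT control replicate 2 (0.61 to 0.71), and Mospd2 without WT ezetimibe replicate 1 or 2 or WT control replicate 3 or 4 (0.64 to 0.82). Aldoc kept its call without WT ezetimibe replicate 4 or WT control replicate 2 (1.37 to 1.73), and Csta2 kept it without WT control replicate 3 (2.23 to 2.66). Vmn2r-ps126 kept it without WT ezetimibe replicate 3 or WT control replicate 1 or 2 (2.55 to 3.62). With the 8 WT libraries alone, limma did not call Mvd, Sqle, Tm7sf2, Rdh11, Mospd2, Aldoc, H2-K2 or Vmn2r-ps126. By limma-voom Aldoc, H2-K2, Csta2 and Vmn2r-ps126 were not called, and with the score of dividing-cell genes as a covariate H2-K2 was not. A filter on a mean of at least 50 left out Csta2 and Vmn2r-ps126.

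Cell type markers gave 0 calls by limma, edgeR and DESeq2. None of 12 enterocyte markers was called, with 6 positive, 1 at an unadjusted p under 0.05 and a median log2 fold change of −0.01. None of 8 Paneth cell markers was called, but all 8 were negative, 6 of them at an unadjusted p under 0.05, with a median of −1.02. Over all genes tested 47.7% were positive and 1.94% were lower at that unadjusted p. Lyz1, the Paneth cell lysozyme, had 4137, 13627, 3477 and 8025 normalised read counts in WT ezetimibe and 7736, 24782, 8884 and 25521 in WT control. Libraries of both groups spread widely and overlapped. Summed Paneth markers were 59967 and 64985 in WT control replicates 2 and 4, 19443 and 24444 in replicates 1 and 3, and 9240 to 38250 in WT ezetimibe. Summed stromal markers were 284 and 397 in WT control replicates 2 and 4, 89.8 and 95.8 in replicates 1 and 3, and 79.2 to 167 in WT ezetimibe. Whether cell make-up differed among these libraries was not tested. None of 12 markers of dividing cells, 7 goblet cell, 8 enteroendocrine, 6 tuft cell, 8 B and plasma cell, 10 myeloid, 9 stromal and 5 adipocyte markers was called, with medians of −0.22, −0.14, −0.03, 0.26, 0.04, −0.27, −0.79 and 0.07. Positive members numbered, in that order, 1, 0, 2, 5, 4, 3, 0 and 3. At an unadjusted p under 0.05 there were, in that order, 0, 1, 0, 1, 0, 2, 1 and 0. Of 6 stem cell markers 1 was positive and 0 reached that p, with a median of −0.25. Of 5 endothelial markers 1 passed the filter on low values, at −0.08. Among the goblet markers Agr2, a disulfide isomerase that folds mucin, was lower without overlap, at −0.41 ± 0.11 (log2, SE, adjusted p by limma = 0.271).

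The same diets were set against each other in KO mice, which share no library with the WT comparison. In KO libraries Gramd1c, the gene of Aster-C, had 71.8 to 156 normalised read counts on ezetimibe and 115 to 194 on the control diet, below the lowest WT library at 1059. Gramd1b, the gene of Aster-B, kept more reads, with 1744 to 2086 on ezetimibe and 962 to 1247 on the control diet in KO, below the lowest WT library at 2274. Which stretch of either gene is deleted was not given in the sources used here. In KO, limma called 62 genes higher (0.434% of those tested) and 42 lower (0.294%). Of the 29 genes that rose in WT, all 29 were positive in KO, 28 at an unadjusted p under 0.05, and 17 were called. Csta2 and Vmn2r-ps126 are among these and passed the filter through ezetimibe libraries alone, which favours a rise in KO as well. Of all genes tested, 50.7% were positive in KO, 11.8% at that unadjusted p. The median log2 fold change of the 29 was 1.10 in WT and 0.92 in KO. They were picked by their WT values, which enlarges the WT median alone, so the medians do not test for a weaker effect in KO. The KO counts rest on few libraries. Without KO ezetimibe replicate 3, a fit chosen after seeing the data, limma called 8 genes in KO, 5 of them among the 29. All 29 were still positive, 27 at an unadjusted p under 0.05, with a median of 0.78 in KO. Without 1 WT library, which alters the shared spread, limma called 29 to 170 genes in KO, fewest without WT ezetimibe replicate 1 and most without WT control replicate 1.

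Abca1 had 115, 84.7, 105 and 98.0 normalised read counts in KO ezetimibe, against 601, 439 and 641 in KO control. It fell there too, by 2.46 ± 0.19 on the log2 scale (SE, adjusted p by limma = 1.86e-05), with −2.48 without KO ezetimibe replicate 3 (adjusted p by limma = 0.000123), and the KO control level lay below all WT controls. The fold change in WT minus that in KO was −0.80 ± 0.26 (log2, SE, unadjusted p by limma = 0.00808, adjusted p = 0.681). Mvk had 358, 338, 438 and 414 in KO ezetimibe, against 213, 243 and 222 in KO control, and its difference, WT minus KO, was 0.56 ± 0.16 (log2, SE, unadjusted p by limma = 0.00342, adjusted p = 0.681). Both genes stood out in WT, and the same WT values enter the difference. Its p-values are therefore not a fair test for genes so picked, and the same holds for H2-Q10 below. KO control libraries held more Mvk than any WT control library, while ezetimibe libraries of both genotypes overlapped.

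H2-Q10 had 349, 409.6, 414 and 317 normalised read counts in KO ezetimibe, against 152, 54.3 and 48.7 in KO control, with KO control replicate 1 the highest control. It rose by 2.31 ± 0.31 in KO (log2, SE, adjusted p by limma = 0.00474), and the difference between genotypes was 0.11 ± 0.42 (SE, adjusted p by limma = 0.956). Isg15 overlapped in KO and was not called there (log2 fold change 1.08 ± 0.28, SE, adjusted p by limma = 0.0574). Of 26 interferon response genes all 26 were positive in KO, against 50.7% of all genes tested. Their mean log2 level was 8.11 in KO ezetimibe replicate 4, below KO control replicate 3 at 8.17. Npc1l1 rose in KO by 0.86 ± 0.17 (log2, SE, adjusted p by limma = 0.0423) and was not called in WT, nor in KO without KO ezetimibe replicate 3 (0.76, adjusted p by limma = 0.116), but the difference itself was −0.57 ± 0.23 (SE) and did not pass (unadjusted p by limma = 0.0239, adjusted p = 0.681).

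Across all genes the difference between genotypes in the drug's effect gave 0 calls by limma, edgeR and limma-voom, 5 by DESeq2, and 1004 genes at an unadjusted p under 0.05 by limma. Its smallest p belonged to Fosb, an immediate-early transcription factor, Naip6, an inflammasome receptor, and Bco1, the enzyme that cleaves beta-carotene, each with an adjusted p by limma of 0.681. Naip6 had 2939, 3143, 4964 and 3168 normalised read counts in WT ezetimibe, against 3982, 3867, 3414 and 2847 in WT control, which overlapped, and 4123, 4995, 4504 and 4355 in KO ezetimibe, against 2013, 1987 and 2322 in KO control, which did not. Bco1 was low in WT ezetimibe at 22.5 to 46.5, against 39.1 to 181 in WT control, and had 61.0 to 146 in KO ezetimibe, against 26.8 to 44.4 in KO control. Naip genes are close copies, among which reads may be split.

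**Figure D5:**
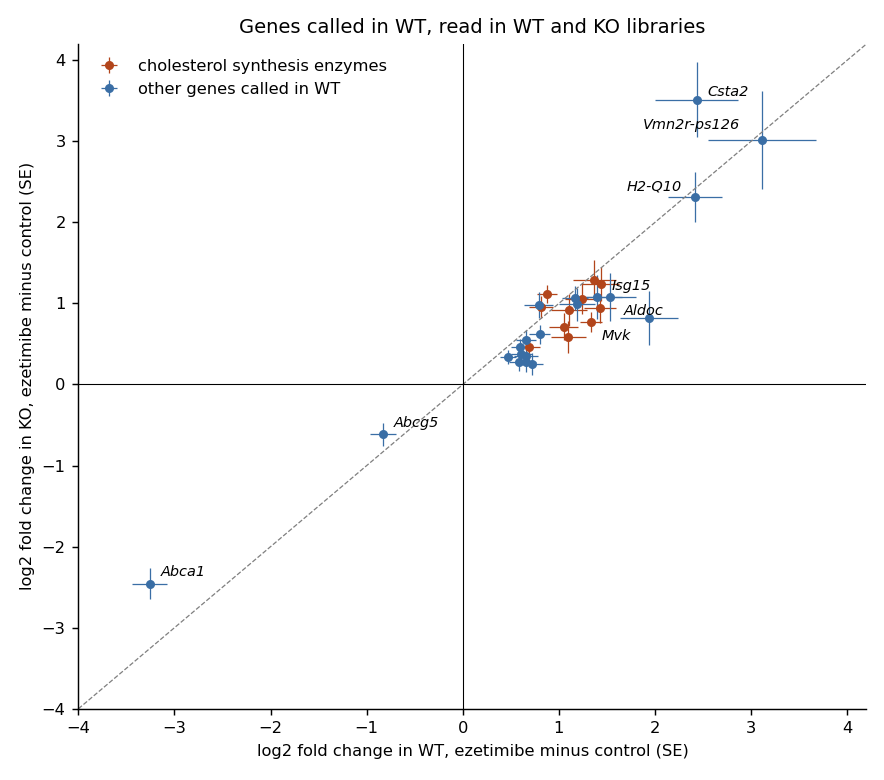
Log2 fold changes of ezetimibe minus control with SE for the 31 genes called in WT, in WT on the horizontal and in KO on the vertical axis, where the dashed line marks equal change. All 31 had the same sign in both genotypes, and Abca1 lay at −3.26 in WT and −2.46 in KO. The genes were picked by their WT values, which favours larger changes in WT.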

How the data were processed

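RNA of frozen distal jejunum was sequenced after TRIzol extraction and NEBNext Ultra II library preparation, per the labels' protocols. FastQC, STAR 2.6.0c, mm10 and DESeq2 were used, per the submitters' processing notes, while counter, strand setting and annotation were not given in the sources used. Reads of overlapping or antisense genes therefore could not be separated. The authors deposited a table of a signal, DESeq2-normalised read counts, for 26844 genes in 15 libraries. All values were whole multiples (within 0.001) of what 1 read is worth, so whole reads were recovered, and depth limits low genes most. Coordinates came from GENCODE M21, which matched 99.93% of identifiers. Deposited tables of KO against WT were not used.

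Genes that reached 10 in 3 or more libraries were tested with limma-trend (limma 3.58.1) on log2(value + 1), which understates changes of low genes, over all 15 libraries as 4 groups taken from the labels. P-values were adjusted by Benjamini-Hochberg over 14299 genes and called under 0.05. The difference between genotypes was a contrast in the same fit. Alternatives, on the recovered reads where counts are needed, were edgeR 4.0.16, DESeq2 1.42.0 and limma-voom (R 4.3.3), with other pseudocounts (0.5 and 5), filters, scalings, covariates and left-out libraries. Genes were named if called in WT, if in a short set of sterol genes, if among the 6 smallest p of a list, if called by edgeR and DESeq2 but not limma, or if among the 3 smallest p of the difference. Some genes of these lists are not reported here. The libraries compared and the gene lists were chosen with earlier results of these data known.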

Additional observations from a re-analysis of the deposited data

Results flagged for a closer look

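Among the genes named, 164 groups of 4 libraries were examined for 1 library that stands far from its other 3, relative to the group's range. Chance gives about 1 such group in 20, and 5 were found. Abcg5 had 3452 normalised read counts in WT ezetimibe replicate 3, where the other 3 had 2648 to 2783. Hmgcs1 had 3952 in WT ezetimibe replicate 2, where the others had 3188 to 3251, and H2-K2 had 149 in WT ezetimibe replicate 3, where the others had 114 to 117.4. In WT control replicate 1 the isoprenoid synthase gene Fdps had 15.28, where the others had 29.06 to 30.91, and Apoc3, the gene of a chylomicron apolipoprotein, had 12370, where the others had 8000.1 to 8721.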

How the results depend on the processing

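The count of 31 genes called in WT stayed within 1.5 times under other pseudocounts, filters, scalings, the 8 WT libraries alone, robust moderation, edgeR, limma-voom and both covariates. With the 8 WT libraries alone the count was 36, but only 21 of these were among the 31. It was 93 by DESeq2 and 17 to 34 without 1 library, with 17 without WT ezetimibe replicate 2, 18 without WT ezetimibe replicate 4 and 20 without WT control replicate 3. With the replicate block it was 54, of which 30 were among the 31. Deviations of same-numbered WT libraries correlated at 0.0638 to 0.233, and 1 of 4 numbers had its own number as best partner. The numbers were not taken as pairs, as no label states a pairing. This check cannot exclude a pairing, and it was not made for KO numbers. Of the 31 calls, 14 passed in all 8 fits without a library and 12 in all 22 alternatives; the cause of the losses was not tested. The 104 calls in KO became 54 without a filter, 330 with a mean of at least 50, 1915 with the replicate block, 1155 by DESeq2, 41 by limma-voom, 42 with a clock score and 2940 with a proliferation score as covariate, 29 to 170 without 1 WT library and 8 without KO ezetimibe replicate 3, a fit chosen after seeing the data. The difference between genotypes gave 5 genes by DESeq2, 184 with the proliferation score and 0 to 1 without 1 library, the 1 without WT ezetimibe replicate 3. Signs turned in 3 genes that were not called. Without 1 library, the log2 fold change of Abcg1 in WT was −0.177 to 0.00204 (positive without WT ezetimibe replicate 4), the log2 fold change of Srebf1 in WT −0.296 to 0.0169 (positive without WT control replicate 1), and the log2 fold change of Gramd1b in WT −0.0845 to 0.192 (negative without WT ezetimibe replicate 3 or WT control replicate 2 or 4) and −0.0646 with the proliferation score.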

Other observations

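Of the 31 genes called in WT, 7 lie on chromosome 17, which holds 722 of the 14299 genes tested. They are H2-Q10, H2-K2, Tapbp, Abcg5, Vmn2r-ps126 and 2 unnamed models. Of 8 nutrient transporters 1 was positive, 0 were called by limma, edgeR or DESeq2 and 1 was lower at an unadjusted p under 0.05, with a median log2 fold change of −0.09. Over all genes tested 47.7% were positive and 1.94% were lower at that unadjusted p. Slc2a2, the basolateral glucose transporter, had 9397, 7319, 10903 and 7777 normalised read counts in WT ezetimibe and 13426, 10393, 11968 and 9721 in WT control, a log2 fold change of −0.37 ± 0.15 (SE, adjusted p by limma = 0.834). Mgam, a brush border enzyme that splits starch fragments, had −0.35 ± 0.16 (log2, SE, adjusted p by limma = 0.968). Of 14 tested clock genes 0 were called by limma, edgeR or DESeq2 and 0 had an unadjusted p under 0.05, and Hlf, a clock output gene, ranged from 35.3 to 138 in WT ezetimibe and from 58.7 to 196 in WT control. Of 13 genes of endoplasmic reticulum stress 3 were positive, with a median log2 fold change of −0.06, and of 9 immediate-early genes 5 were positive, with a median of 0.02. In these lists 0 were called by limma, edgeR or DESeq2, and 0 and 1 had an unadjusted p under 0.05.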
